A study of Saccharomyces cerevisiae with 5 samples.

Results

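The 42 genes described here encode plasma membrane permeases, pumps and ion transporters of the budding yeast Saccharomyces cerevisiae, together with partners such as the FET3 oxidase, among 5583 genes named on the arrays. They were taken by gene symbol from a fixed list of 13 amino acid permeases, 23 ion and metal transporters and 6 carriers of nucleobases, nucleosides and other organic solutes. All 42 were found under their symbols on both array designs. The study set RNA that co-purified with zzYra1, a tagged form of the mRNA export adaptor Yra1 named as in the labels, against total RNA on 5 spotted arrays with 2 channels. Channel 1 held the immunoprecipitated (IP) RNA on arrays 1 and 3, and channel 2 held it on the other 3 arrays, with total RNA opposite. The labels give no strain, growth condition or culture, and no mock precipitation was analysed here.

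Yeast takes up nutrients through permeases in the plasma membrane that are driven by the proton gradient built by the ATPase Pma1. Amino acid permeases differ in substrate range and in the nitrogen signals that control them, while phosphate, sulfate, zinc, copper and iron carriers are controlled by the supply of their own substrate. Yra1 binds mRNA in the nucleus and hands it to the export receptor Mex67, so comparing IP with total RNA asks which mRNAs it is bound to more or less than their abundance gives.

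The values are log2 ratios of the channels, each array centred on its own median, so 0 is the median spot of an array. The sources used here do not state which channel is on top of the ratio, so "above 0" and "below 0" describe the deposited ratio and not enrichment in the IP. Before centring, the log10 medians were -1.39 and -0.853 with IP RNA in channel 1 (arrays 1 and 3), and 1.34, 0.302 and -0.141 with IP RNA in channel 2 (arrays 2, 4 and 5). Arrays 1 and 2 carry the same label set with the channels exchanged and were averaged as replicate 1, and arrays 3, 4 and 5 were replicates 2, 3 and 4. Nothing in the labels ties the arrays to separate cultures, and p-values therefore cover only the spread between these arrays, which may be technical. Array 5 stood apart, with a spread over genes (SD) of 2.25 against 0.81 to 1.11 on the other arrays. Where the mean of a transporter gene rests on array 5, the mean is also given without it.

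Transporter genes were unevenly measured. On arrays 1 to 5, 42, 29, 26, 28 and 10 of them had a value. These are 100%, 69.0%, 61.9%, 66.7% and 23.8% of the transporter genes, beside 99.2%, 68.9%, 48.8%, 57.7% and 31.0% of all named genes. Only 6 of the 42 had a value on all 5 arrays (BAP2, CAN1, PMA1, TRK1, PHO90 and SUL1), and 8 had one in all 4 replicates. Of the 8, 3 were amino acid permeases, 5 were ion transporters and none was one of the other 6 carriers. FET3, the multicopper oxidase that works with the iron permease Ftr1, and PHO91, a phosphate transporter of the vacuole, had a value on array 1 alone.

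**Figure D1:**
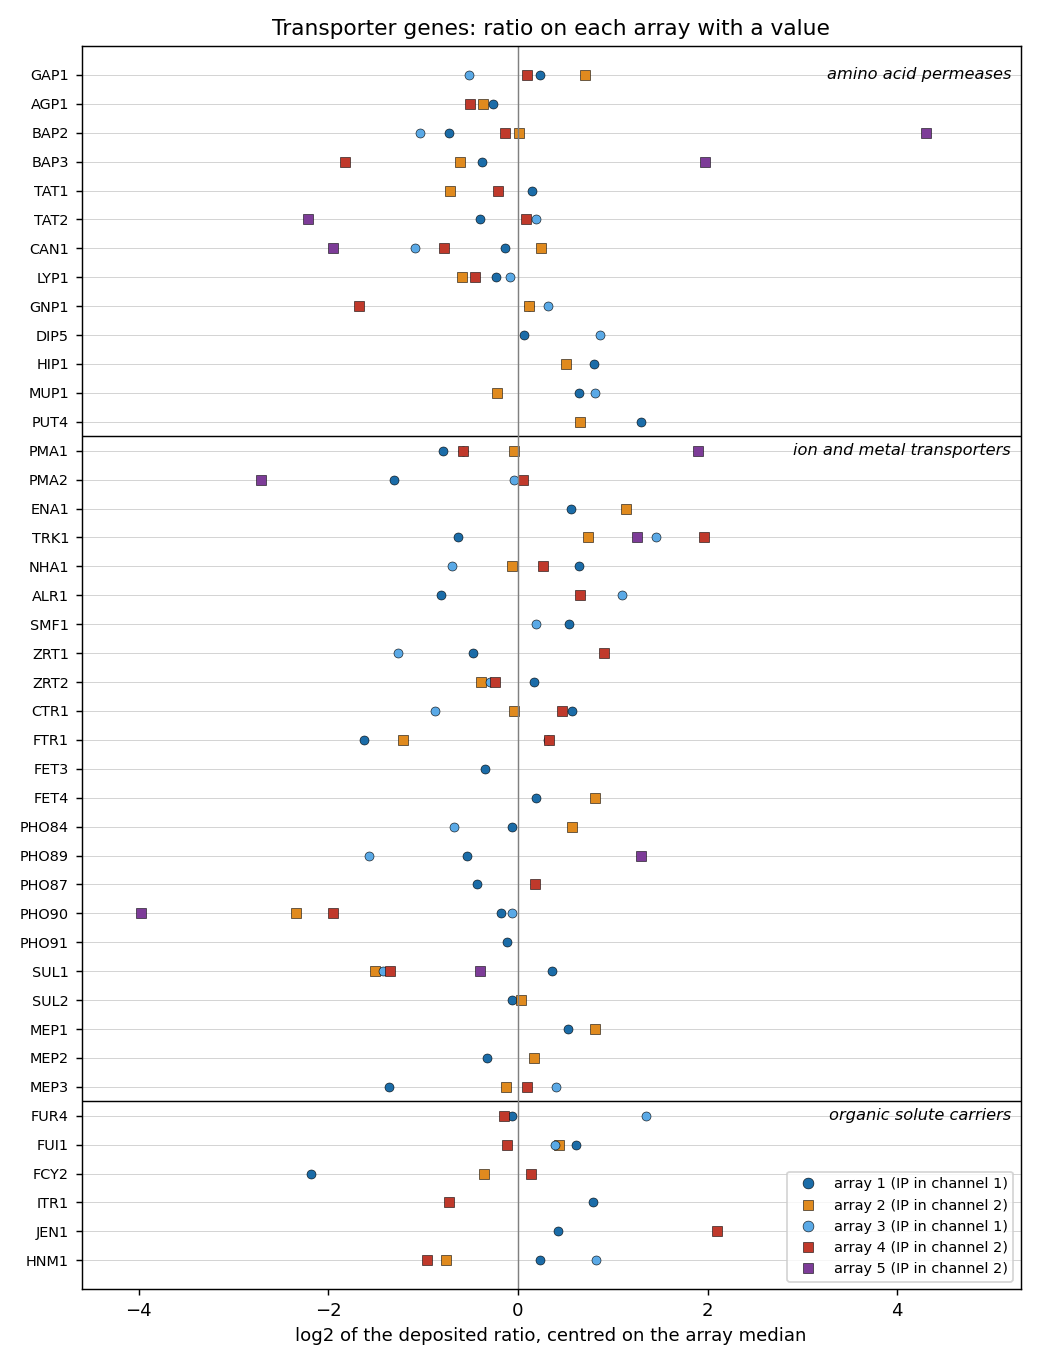
Each row is 1 transporter gene and each point its log2 ratio on 1 array, centred on the array median (circles, IP RNA in channel 1; squares, channel 2). Most points lie within 1 unit of 0, and array 5 holds several of the far points, such as BAP2 at 4.30 and PHO90 at -3.98.

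None of the 8 transporter genes with a value in all 4 replicates passed the test, and the other 34 were outside it. Over the 703 genes with a value in all 4 replicates (limma, Benjamini-Hochberg adjustment), 0 genes (0%) and 0 of the 8 transporter genes had an adjusted p under 0.05. At an unadjusted p under 0.05 there were 55 genes (7.82%), PHO90 among them. The variant of limma with trend and robust estimation gave 19, with no transporter gene among them, and PHO90 was also not among such genes without array 4, without array 5 or with local medians subtracted. The adjusted p of the 8 ran from 0.540 (PHO90) to 0.972 (PMA1). Their median of means was -0.76, beside 0.042 over all 703 genes, and it was -0.52 without array 5. With the channel 2 arrays turned it was 0.32.

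Among the amino acid permeases, BAP2, a permease for branched-chain amino acids, had -0.72, 0.0088, -1.04, -0.14 and 4.30 on arrays 1 to 5. Array 5 was far above the others, and the mean of 0.69 ± 2.44 (SD, n = 4; limma, adjusted p = 0.759) was -0.51 without it. CAN1, the arginine permease, had -0.14, 0.25, -1.09, -0.78 and -1.95 on arrays 1 to 5. It lay below 0 on every array but array 2, with a mean of -0.94 ± 0.83 (limma, adjusted p = 0.622) and -0.60 without array 5. TAT2, the high-affinity tryptophan permease, had -0.40, 0.19, 0.085 and -2.22 on arrays 1, 3, 4 and 5. Its mean of -0.58 ± 1.12 (limma, adjusted p = 0.733) was set by array 5, without which it was -0.04.

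Permeases measured in fewer replicates stayed mostly close to the array median. GAP1, the general amino acid permease, had 0.23, 0.70, -0.52 and 0.10 on arrays 1 to 4. AGP1, a broad-range permease, had -0.27, -0.37 and -0.50 on arrays 1, 2 and 4, all below 0, the only 1 of 9 transporter genes with exactly 3 values to stay on 1 side, beside 25% of such genes. Its close relative GNP1, a glutamine permease, had 0.11, 0.12, 0.32 and -1.67 on arrays 1 to 4. GNP1 was above AGP1 on arrays 1 and 2 and below it on array 4. BAP3, the relative of BAP2, had -0.38, -0.61, -1.82 and 1.98 on arrays 1, 2, 4 and 5. Like BAP2 it was highest on array 5, where the median of nearby spots of other genes was 2.72. TAT1, which takes up tyrosine and branched-chain amino acids, had 0.15, -0.71 and -0.20 on arrays 1, 2 and 4. LYP1, the lysine permease, lay below 0 on arrays 1 to 4 (-0.23, -0.59, -0.084 and -0.45). Its 4 values were all modest, and it was the only 1 of 13 transporter genes with a value on exactly 4 arrays to stay on 1 side of 0, beside 13% of such genes overall. MUP1, the high-affinity methionine permease, had 0.64, -0.22 and 0.82 on arrays 1 to 3. DIP5, for glutamate and aspartate, had 0.067 and 0.87 on arrays 1 and 3. The proline permease PUT4 (1.30 and 0.65) and the histidine permease HIP1 (0.81 and 0.50) had values on arrays 1 and 2 alone, all above 0.

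Among the pumps and alkali cation transporters, PMA1, the essential proton ATPase, had -0.79, -0.038, -0.58, -0.58 and 1.89 on arrays 1 to 5. It was below 0 on 4 arrays and above on array 5, and its mean of 0.082 ± 1.21 (SD, n = 4; limma, adjusted p = 0.972) was -0.52 without array 5. PMA2, its little-expressed isoform, had -1.31, -0.037, 0.055 and -2.71 on arrays 1, 3, 4 and 5, with a mean of -1.0 ± 1.30 (limma, adjusted p = 0.628) and -0.43 without array 5. The 2 genes are close in sequence, and their signal on spotted probes may be shared, which was not tested. They lay apart on array 5, where PMA1 was high and PMA2 low. TRK1, the high-affinity potassium transporter, had -0.63, 0.74, 1.46, 1.96 and 1.26. It was above 0 on every array but array 1, with a mean of 1.18 ± 0.81 and a 95% interval from -0.091 to 2.46 (limma, adjusted p = 0.622). TRK1 was the highest of the 8, and its mean was 1.16 without array 5. NHA1, a sodium and potassium antiporter, had 0.65, -0.061, -0.70 and 0.27 on arrays 1 to 4. ENA1, the sodium efflux ATPase, had 0.56 and 1.14 on arrays 1 and 2, and its near-identical tandem copies make that value uncertain.

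PHO90, a low-affinity phosphate transporter, had the lowest mean of the 8. It had -0.17, -2.34, -0.059, -1.95 and -3.98 on arrays 1 to 5, below 0 on all 5, as were 3.37% of the 475 genes with 5 values. It was 1 of 6 transporter genes on 1 side on every array, beside 8.63% of those genes. The 3 arrays with IP RNA in channel 2 held its 3 low values, and on the 2 arrays with IP RNA in channel 1 it was near 0. Its mean was -1.81 ± 1.64 with a 95% interval from -3.38 to -0.24 (limma, adjusted p = 0.540), and -1.09 without array 5. SUL1, a sulfate permease, had 0.36, -1.51, -1.42, -1.35 and -0.40, with arrays 2, 3 and 4 close together. Its mean was -0.94 ± 0.52 (limma, adjusted p = 0.622), and -1.11 without array 5. In all 4 replicates PHO90 and SUL1 lay below 0 and TRK1 above, 3 of 8 genes on 1 side, beside 15.1% of the 703 genes (5.55% below and 9.53% above). On all 3 arrays with IP RNA in channel 2, PHO90 and SUL1 were below 0 (11.6% of 735 genes) and TRK1 above (17.4%), of 7 transporter genes. On all 3 arrays of the second design CAN1, PHO90 and SUL1 were below 0 (9.66% of 704 genes) and TRK1 above (21.3%), of 8. These 3 counts all include arrays 4 and 5, so they are not independent of each other. The other sulfate permease, SUL2, was near 0 on arrays 1 and 2 (-0.067 and 0.034). Of the other phosphate carriers, PHO84, the high-affinity proton symporter, had -0.065, 0.57 and -0.67 on arrays 1 to 3. PHO89, the sodium symporter, had -0.54, -1.57 and 1.30 on arrays 1, 3 and 5. PHO87, the close relative of PHO90, had -0.43 and 0.19 on arrays 1 and 4, and PHO91 had -0.12 on array 1.

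**Figure D2:**
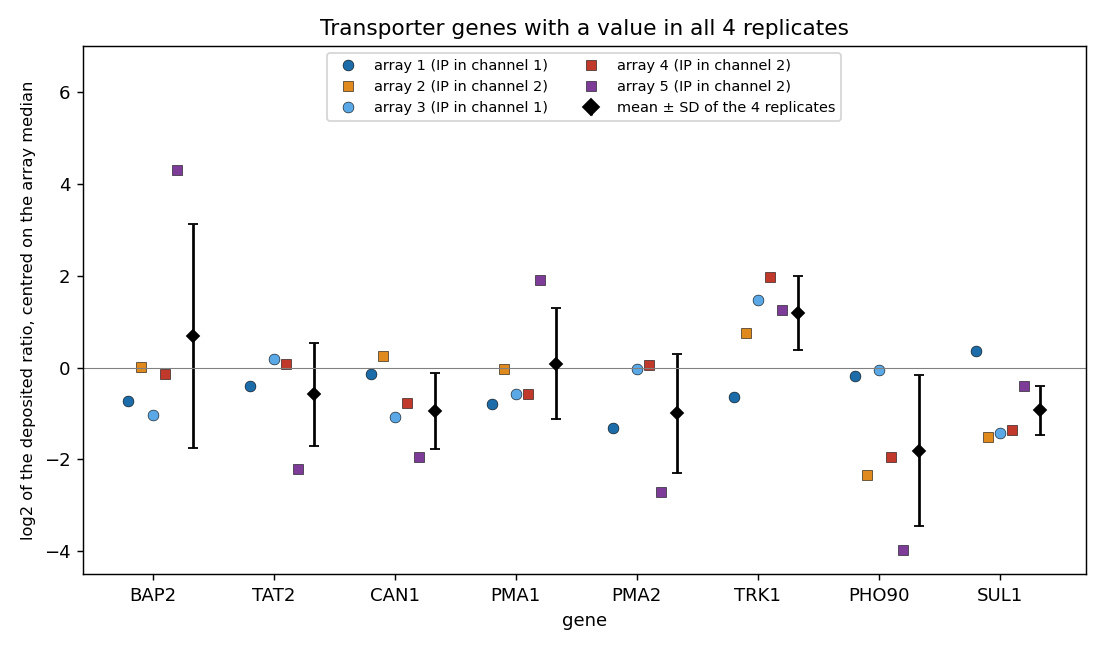
The 8 transporter genes with a value in all 4 replicates, with a point for each array (log2 ratio, centred) and a diamond with bars for the mean ± SD of the 4 replicates. Array 5 holds the farthest value in BAP2, TAT2, CAN1, PMA1, PMA2 and PHO90, whereas TRK1 and SUL1 have their farthest values on other arrays.

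Of the 8 metal transporter genes, 5 had values of both signs, SMF1 and FET4 were above 0 on both arrays that measured them, and FET3 had 1 value. FTR1, the iron permease, had -1.63 and -1.21 on arrays 1 and 2 but 0.31 and 0.33 on arrays 3 and 4, so its values split by array design and not by the channel of the IP RNA. Only arrays 1 and 2, which form replicate 1, are of the first design, so design and replicate cannot be told apart. The difference between designs was not tested. CTR1, the high-affinity copper transporter, had 0.57, -0.044, -0.87 and 0.46 on arrays 1 to 4. ZRT1, the high-affinity zinc transporter, had -0.47, -1.26 and 0.91 on arrays 1, 3 and 4. Its low-affinity relative ZRT2 stayed between -0.38 and 0.17 on arrays 1 to 4. ALR1, the magnesium transporter, had -0.81, 1.10 and 0.65 on arrays 1, 3 and 4. SMF1, a manganese transporter, had 0.53 and 0.19 on arrays 1 and 3, and FET4, a low-affinity iron transporter, 0.19 and 0.81 on arrays 1 and 2. FET3 had -0.35 on array 1. Of the ammonium permeases, MEP1 was above 0 on arrays 1 and 2 (0.53 and 0.81), MEP2 had -0.32 and 0.17 there, and MEP3 had -1.36, -0.12, 0.40 and 0.093 on arrays 1 to 4.

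The remaining carriers were absent from array 5. FUR4, the uracil permease, had -0.064, 1.35 and -0.14 on arrays 1, 3 and 4, and FUI1, the uridine permease, had 0.61, 0.44, 0.39 and -0.11 on arrays 1 to 4. FCY2, the purine and cytosine permease, had -2.18, -0.35 and 0.14 on arrays 1, 2 and 4, the lowest transporter gene on array 1. HNM1, the choline transporter, had 0.23, -0.76, 0.82 and -0.96 on arrays 1 to 4. It was above 0 on both arrays with IP RNA in channel 1 and below 0 on both with IP RNA in channel 2. JEN1, the lactate permease, had 0.42 and 2.10, and ITR1, the inositol transporter, 0.79 and -0.73, on arrays 1 and 4.

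When genes with a value in at least 3 replicates were fitted, 23 transporter genes entered and 0 were called, as were 0 of all 2422 genes (0%). At an unadjusted p under 0.05 there were 119 genes (4.91%), PHO90 and TRK1 among them. With at least 2 replicates, 33 transporter genes and 4483 genes in all were fitted, again with 0 called (0%), and 170 genes (3.79%) had an unadjusted p under 0.05, with PHO90, TRK1 and SUL1 among them. The 15 transporter genes with exactly 3 replicates had means from -0.41 (GNP1) to 0.38 (FUR4). Of the 23 with at least 3, 7 had a mean above 0, beside 46.8% of all genes. By class these were 2 of 7 amino acid permeases, 3 of 13 ion transporters and 2 of 3 other carriers. Of the 12 transporter genes with values on exactly 2 arrays, 8 were on 1 side of 0, all above it. Over all such genes 48.5% were on 1 side, above or below, and the share above alone was not computed. HIP1, PUT4, ENA1, FET4 and MEP1 had these values on arrays 1 and 2, which form replicate 1.

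In the ratios as deposited, amino acid permeases and ion transporters did not stand apart in a stable way. The picture depended on the direction of the ratio, which is not known, as given below. On array 1 the class medians were 0.067 for 13 amino acid permeases and -0.17 for 23 ion transporters. On array 2 they were 0.0088 for 11 amino acid permeases and -0.038 for 15 ion transporters. On array 3 they were 0.054 for 8 and -0.29 for 15, in the same order. The order was the opposite on array 4, with -0.45 for 9 amino acid permeases and 0.19 for 13 ion transporters, and on array 5, with 0.013 for 4 and 0.43 for 6. The difference, amino acid permeases minus ion transporters, was thus 0.24, 0.046, 0.35, -0.63 and -0.41 on arrays 1 to 5. Averaged over replicates it was -0.14 ± 0.46 (SD, n = 4), smaller than the spread between replicates. It changed sign to 0.18 with class means in place of medians, to 0.15 with a running median removed and to 0.021 without PMA1. It was further below 0 with the 13 proton, alkali and metal cation transporters alone (-0.39), the genes with all 4 replicates (-0.38), the first spot of each gene (-0.34) and the channel 2 arrays alone (-0.33). Were the deposited ratios set by channel and not by sample, the channel 2 arrays would have to be turned. The difference was then 0.098, 0.35, 0.63 and 0.41 in the 4 replicates, a mean of 0.37, with array 2 alone below 0. With local slide values also removed, as described below, that mean was -0.025. On array 4, 2 of 9 amino acid permeases and 9 of 13 ion transporters were above 0, beside 48.7% of all genes. On array 1 the counts were 7 of 13 and 8 of 23, beside 49.4%, and on array 2 they were 6 of 11 and 7 of 15, beside 50.2%. On array 3 they were 4 of 8 and 5 of 15, beside 47.6%, and on array 5 they were 2 of 4 and 3 of 6, beside 48.2%. No p is given for the classes, whose members were chosen with results of these data known.

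**Figure D3:**
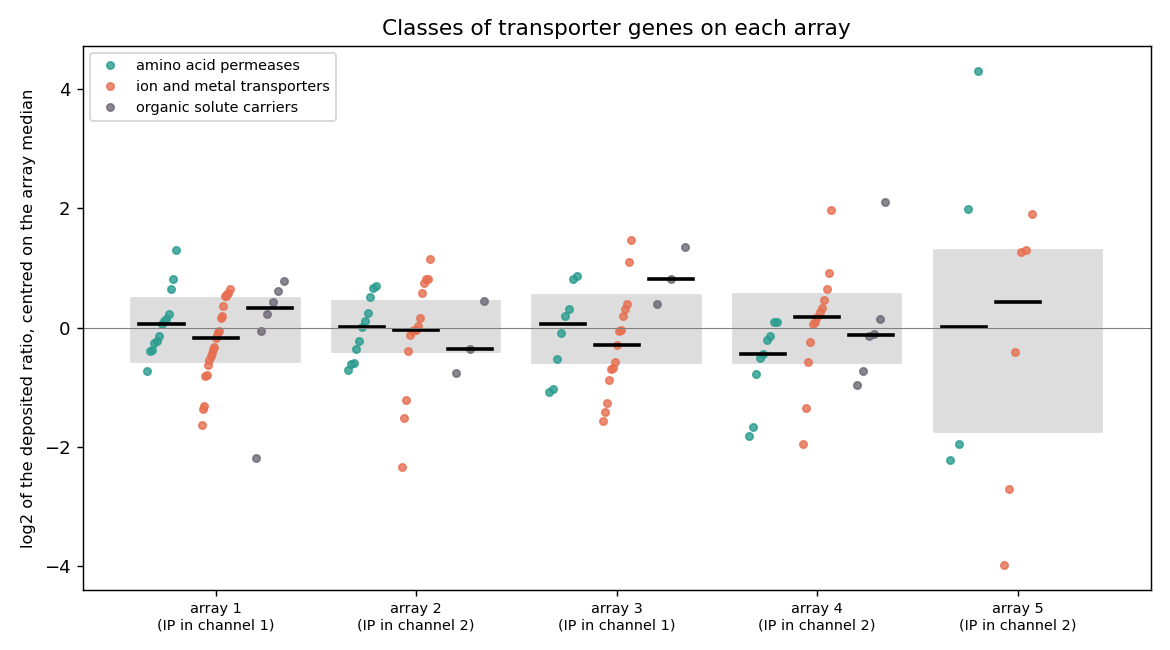
Points are transporter genes on each array (log2 ratio, centred), split into amino acid permeases, ion and metal transporters and organic solute carriers. Black lines are class medians and grey bands the middle 50% of all genes. The amino acid median is above the ion median on arrays 1 to 3 and below it on arrays 4 and 5.

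How well the spots of 1 gene agreed differed between arrays. Arrays 3, 4 and 5 carry the spots of a transporter gene next to each other, and arrays 1 and 2 far apart. Over all genes, the 2 spots correlated at 0.79, 0.86 and 0.92 on arrays 3, 4 and 5, against 0.12 and 0.31 on arrays 1 and 2 (Pearson, across 1542, 2365, 1429, 1098 and 430 genes). For BAP2 on array 5 the spots had 4.32 and 4.29. These spots lie next to each other, and adjacent spots of different genes also correlated there (0.74), so their agreement is not independent. TRK1 had 1.46 on both spots of array 3, but 1.10 and 2.83 on array 4. PHO90 had -2.03 and -1.87 on array 4, and a single spot on array 5. PMA1 was the opposite case. Its spots had 1.54 and -2.70 on array 3, the widest gap (4.24) of the 1542 genes with 2 spots there, and -1.91 and 0.34 on array 1. Its gene values on those arrays are means of spots that disagree, and its value on array 5 comes from 1 spot. Over the 18 transporter genes with 2 spots on array 3, the spots correlated at 0.081 and the median gap was 0.66, beside 0.44 over all genes. On array 4 it was 0.33 over 20 genes beside 0.34, and on array 5 0.29 over 7 genes beside 0.41, with correlations of 0.77 and 0.97 over these transporter genes. On array 1 the gap was 0.36 over 10 transporter genes beside 0.71, with a correlation of -0.11, and on array 2 it was 0.49 over 4 beside 0.61, so the transporter genes had a wider median gap on array 3 than on arrays 1 and 2.

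**Figure D4:**
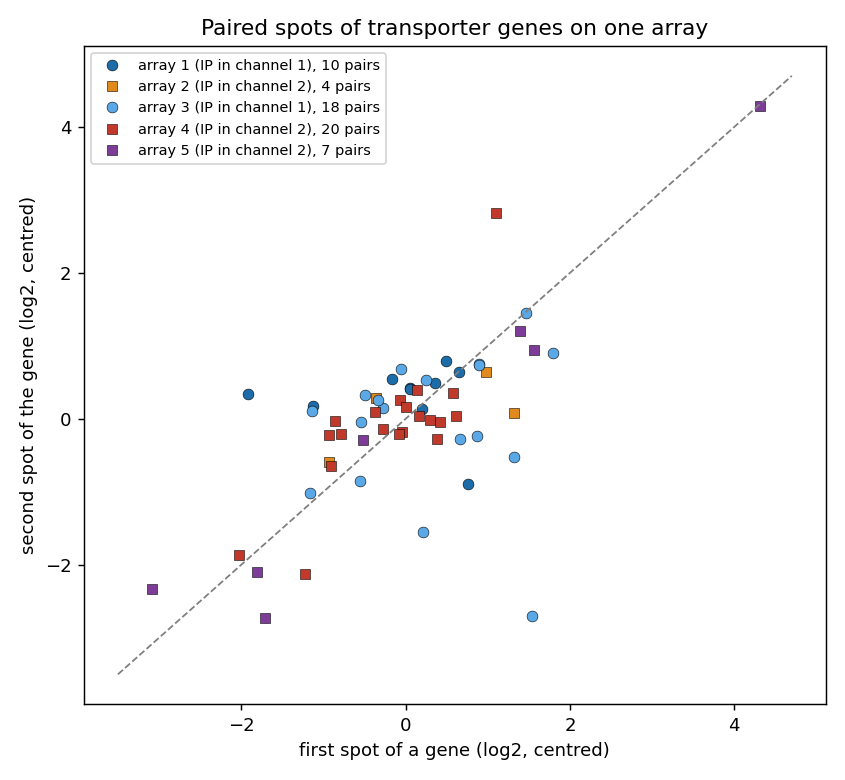
Each point is a transporter gene with 2 spots on 1 array, with the log2 ratio of the first spot across and of the second up. The dashed line marks equal values. Most points of arrays 4 and 5 lie near it, and PMA1 on array 3 lies farthest from it, at 1.54 and -2.70.

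The ratio of a spot also followed its place on the slide. Spots next to each other in table order that belong to different genes had correlations of 0.51, 0.17, 0.52, 0.26 and 0.74 on arrays 1 to 5. Correlation with the spot 20 places on was higher than with the spot 10 places on, as in a grid with 20 columns. It was 0.42 against 0.17 on array 1 and 0.40 against 0.17 on array 3. The median step from spot to spot on array 5 was 0.55 within such rows and 2.76 across their ends. The steps within rows include adjacent spots of 1 gene. Between adjacent spots of different genes, row ends included, the median step there was 0.81. The median of the spots of other genes within 3 rows and 3 columns was therefore set beside each transporter gene, a comparison chosen after the data were seen. On array 5, 8 transporter genes had such a median, and it followed their own values closely (Pearson 0.97 across 8 genes, which share 1 slide). PHO90 had -3.98 on array 5 where its neighbours had -3.71. PMA2 had -2.71 where its neighbours had -2.33, and TAT2 -2.22 where they had -2.18. CAN1, at -1.95, was above its neighbours (-3.05), and TRK1, at 1.26, was close to its own (1.11). BAP3, at 1.98, was below its neighbours (2.72), and PHO89, at 1.30, was near its own (1.51). SUL1, at -0.40, lay on the other side of 0 from its neighbours (0.19). SUL1 apart, the extreme array 5 values of these genes were thus shared by other genes on the same area of the slide. BAP2 and PMA1 had fewer than 5 measured spots around them on array 5, so no local median was set for them. With a running median over 81 spots removed they had 1.47 and -0.40 there. That median takes the 81 measured spots in table order, which reach beyond the nearby area, so it is not a local value. On the other arrays the correlation between transporter genes and neighbours was lower, at 0.31, 0.27, 0.41 and 0.24 on arrays 1 to 4.

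Some values stood out from their surroundings. PHO90 had -2.34 on array 2 and -1.95 on array 4 where its neighbours had -0.23 and 0.90. SUL1 had -1.51 on array 2 and -1.35 on array 4 where they had -0.05 and -0.41, but on array 3 its -1.42 lay near theirs (-1.09). TRK1 exceeded its neighbours by 0.74, 1.13, 0.70 and 0.15 on arrays 2 to 5 and was 0.17 below them on array 1. With local medians subtracted from every spot, 565 genes and 6 transporter genes could be fitted and 0 of either were called (limma, with 30 genes at an unadjusted p under 0.05). The means were then -1.08 ± 1.30 for PHO90, -0.61 ± 0.25 for SUL1, 0.56 ± 0.45 for TRK1, -0.19 ± 0.31 for TAT2, -0.18 ± 0.20 for PMA2 and -0.15 ± 0.97 for CAN1 (SD, n = 4; limma, adjusted p from 0.750 to 0.956). SUL1 was below its surroundings in all 4 replicates and TRK1 above in all 4, and both means were closer to 0 than without the subtraction. The share of all 565 genes that stayed on 1 side after the subtraction was not computed. In replicate 1, SUL1 differed from its surroundings by 0.28 on array 1 and by -1.46 on array 2. What part of the values is due to slide position was not tested.

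Across transporter genes, the correlation between arrays ran from -0.21 (arrays 3 and 5, 9 genes) to 0.60 (arrays 2 and 5, 7 genes, Spearman 0.29). Over all genes the same pairs gave 0.23 and 0.035. Arrays 1 and 2 correlated at 0.30 over 29 transporter genes, beside 0.0077 over all genes, and arrays 2 and 4, which hold the IP RNA in the same channel, at 0.56 over 20 (Spearman 0.41), beside 0.12. PHO90 and SUL1 were low on both. Arrays 3 and 4 gave 0.24 over 21 genes, beside 0.069 over all genes, and arrays 1 and 4 -0.15 over 28, beside -0.033. Arrays 4 and 5 gave 0.22 over 9, beside 0.16, and arrays 2 and 3 0.083 over 18, beside 0.023. Arrays 1 and 3 gave -0.073 over 26, beside -0.045, and arrays 1 and 5 -0.18 over 10, beside 0.060. These are descriptions across genes, which are not replicates and share a slide. The sign agreed between arrays 2 and 4 for 11 of 20 transporter genes, or 55.0%, beside 52.3% of all genes.

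Genes around these transporters showed no call either. Of 16 regulators of permeases, 5 were tested, 2 above 0 and 3 below, with a median of -0.45 beside 0.042 over all genes. NPR1, a kinase that stabilises permeases at the membrane, was lowest (-1.96 ± 1.76) and UGA3, an activator of GABA use, highest (0.45 ± 1.05). On array 5 NPR1 had -2.77 and UGA3 1.73. Of 35 other ion transporters and regulators, 5 were tested, all below 0, with a median of -0.89. Over all 703 tested genes, 51.8% were above 0. The 5 ran from SIT1, a siderophore transporter (-0.093 ± 1.07), to PMR1, the Golgi calcium and manganese pump (-1.24 ± 1.60). PMR1 had -3.61 on array 5 but -0.11, -0.070, -0.50 and -0.77 on arrays 1 to 4. Of 14 other amino acid and related permeases and sensors, 2 were tested, THI7, a thiamine transporter (-0.031 ± 0.72), and SSY1, the amino acid sensor (-1.01 ± 2.55). SSY1 had 1.81 and 0.38 on arrays 1 and 3 but -3.76 and -2.47 on arrays 4 and 5. Of 15 drug and polyamine exporters only PDR12, an exporter of weak acids, was tested (1.77 ± 0.85), and it was above 0 on all 5 arrays, as were 5.26% of genes. The adjusted p of these 13 genes was 0.540 or higher (limma). Turning the channel 2 arrays gave means of 1.25 for NPR1, 0.97 for PMR1, 2.10 for SSY1, 0.48 for SIT1, -0.14 for UGA3, -0.085 for THI7 and -1.17 for PDR12.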

How the data were processed

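Values were the log10 ratios of the 2 channels per spot in the tables the authors deposited for 5 arrays. Background correction, dye normalization, direction and log base are not given in the sources used here. Base 10 was settled from 1000 values per array. In base 10, 32.3% (array 3) to 93.2% (array 4) were logs of fractions whose numerator and denominator had a product under 100000000. The shares were 1.6% to 2.6% in base 2 and 2.5% to 4.1% in base e. Ratios were put on the log2 scale, centred on the array median and averaged over spots of a gene. Gene names of spots came from the platform annotation held by GEO. Of 5583 and 5539 genes, 5578 and 5534 matched RefSeq R64, used for names only.

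The mean ratio of each gene measured in every replicate was compared with 0 in limma 3.58.1 (lmFit, eBayes) in R 4.3.3, with Benjamini-Hochberg adjustment at 0.05. Python 3.11.15, numpy 2.4.6, pandas 2.3.3 and matplotlib 3.10.9 did the rest. The number of arrays limits the precision, and depth per spot is unknown. Every transporter gene is accounted for, and of related lists the highest and lowest tested genes are named. Members, lists and tests were chosen with earlier results of these data known. Protein identity was not computed here.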

Additional observations from a re-analysis of the deposited data

Results flagged for a closer look

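In 2 of the 8 tested transporter genes, 1 of the 4 replicates lay far from the rest (Dixon's test at the 95% level), which chance alone flags in about 1 of 20 groups. Both flagged values were on array 5, the array with the widest spread: BAP2 at 4.30 and PMA1 at 1.89. BAP2 was measured there on 2 agreeing spots, which lie next to each other and are not independent, and PMA1 on 1.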

How the results depend on the processing

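The count of genes called was 0 in every alternative run, for all genes and for transporter genes. Genes at an unadjusted p under 0.05 numbered 55 of 703 (7.82%) in the main fit. Of the same 703 genes there were 17 (2.42%) with the channel 2 arrays turned and 19 (2.70%) with trend and robust estimation. Leaving out a replicate gave 26 (3.70%) to 65 (9.25%) of the 703. With each array as a replicate there were 32 of 475 genes (6.74%). With local medians subtracted and channel 2 arrays turned there were 20 of 565 (3.54%). The difference between amino acid permeases and ion transporters ran from -0.30 to 0.025 when a replicate was left out and was 0.37 with the channel 2 arrays turned. Turned, the means of 8 genes all changed sign, to -1.39 for BAP2, 0.48 for TAT2, 0.36 for CAN1, -0.57 for PMA1, 0.33 for PMA2, -0.61 for TRK1, 1.74 for PHO90 and 0.32 for SUL1. Turned and with local medians subtracted, 6 genes had a mean, 0.029 for PMA2, -0.041 for TRK1, 1.00 for PHO90 and 0.52 for SUL1, which changed sign, and -0.21 for TAT2 and -0.071 for CAN1, which did not. PMA1 was -0.27 with arrays scaled to the same spread, -0.017 with each array as a replicate and -0.41 with a running median removed. When a replicate was left out, BAP2 ran from -0.51 to 1.27, PMA1 from -0.52 to 0.30, PHO90 from -2.39 to -1.09 and TRK1 from 0.92 to 1.56. Beyond the construction of each alternative the cause was not tested. Local medians, the removal of PMA1 from its class and the correlation of neighbouring spots were chosen after seeing the data. No paired analysis was possible because the arrays form 1 group.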
